A study of Mus musculus with 8 samples.

Results

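The cytochrome P450 genes are described here across mouse colon tumors and normal colon. The set holds every array probe whose gene name reads as Cyp followed by a family number, a letter and a number, or as Cyp51. That rule found 106 of 41174 probes, for 72 genes. A probe was kept when its level reached 5.59 on the log2 scale, an estimate of the upper edge of background, on at least 4 of the 8 arrays. In all 85 P450 probes for 64 genes were kept, of 31871 probes for 21635 genes on the whole array. Each gene was read from its brightest kept probe. The 8 P450 genes left out as too dim were Cyp2a12, Cyp2c38, Cyp2c54, Cyp2j5, Cyp4f15, Cyp8b1, Cyp11b2 and Cyp19a1, and no value of theirs was above 6.45. Of the 64 genes, 54 reached the limit on all 8 arrays. The other P450 genes passed on part of the arrays, so a difference in them can come partly from the filter.

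The tumors are 4 samples labelled colon adenoma from C57BL/6 mice of genotype Tcf4Het ApcHet, and the normals are 4 samples labelled normal colon from C57BL/6 mice of genotype TCF4WT ApcHet. Both groups therefore carry 1 mutant copy of Apc, which the protocol writes as ApcMin, and tissue and Tcf4 genotype cannot be told apart. The protocol names littermates and the distal colon as the source. All 8 samples are titled adult. Exact age, sex and how far each adenoma was freed of surrounding mucosa are not given in the sources used here.

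Cytochrome P450 enzymes hold a heme iron and insert an oxygen atom into their substrates, with electrons passed on by P450 oxidoreductase in the endoplasmic reticulum or by ferredoxin in mitochondria. Families 1 to 4 act mainly on drugs, plant compounds, fatty acids and arachidonic acid, and in the gut they lie largely in the absorptive epithelium. Other families make steroid hormones, sterols and bile acids, or activate and clear vitamins D and A.

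Levels below are the authors' normalised log2 intensities, a difference is the tumor mean less the normal mean, and ± gives the SD of a level (n = 4 per group) or the standard error of a difference. Tcf7l2, the current name of Tcf4, had 12.99, 12.70, 12.33 and 13.20 in tumors 1 to 4 against 14.42, 14.85, 14.19 and 14.79 in normals 1 to 4, a difference of -1.75 ± 0.24 (limma adjusted p = 0.0146). The sources used here do not state where the Tcf4 allele is disrupted relative to this probe. Among the markers of absorptive colonocytes Aqp8 was bright in both groups, with 15.42 to 17.70 in tumors and 18.44 to 18.52 in normals. Slc37a2, another of them, was dimmer, with 9.91 to 11.85 in tumors and 13.95 to 15.37 in normals. Normal 3 stood apart from its group: its correlation over all genes was 0.947 to 0.966 with the tumors and 0.872 to 0.941 with the other normals. Counts of called genes are therefore also given without it, read against the 51.5% of all genes called in that fit. Only 4 of the 8 columns of the value table could be traced to a scanner file, and of these tumor 1 alone matched the file deposited for its own sample. The column of tumor 2 matched the file deposited under normal 4, so the labels conflict on whether it is tumor or normal. The columns of normals 1 and 2 matched the files of normals 2 and 3.

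Of the 64 P450 genes, 16 fell in tumors and 0 rose (limma, adjusted p under 0.05). These shares were 25% lower and 0% higher, against 7.54% lower and 7.0% higher over all 21635 genes, and 1 P450 gene was higher at an unadjusted p under 0.05. The 16 genes that fell were Cyp2c29, Cyp2c39, Cyp2c40 and Cyp2c55, Cyp2d9, Cyp2d10, Cyp2d13 and Cyp2d22, Cyp2f2, Cyp2s1, Cyp3a13, Cyp4a10, Cyp4f13, Cyp4f16, Cyp4v3 and Cyp39a1. The median difference of the 64 genes was -0.24, against 0.15 over all genes tested, and centring each array on its median brought the median over all genes to 0.02. Tumors and normals did not overlap in 18 of the 64 genes, which is 28.1%, against 23.8% of all genes. Counted by probe, 22 of 85 P450 probes fell and 0 rose, against 13.4% of all probes called in either direction.

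**Figure D1:**
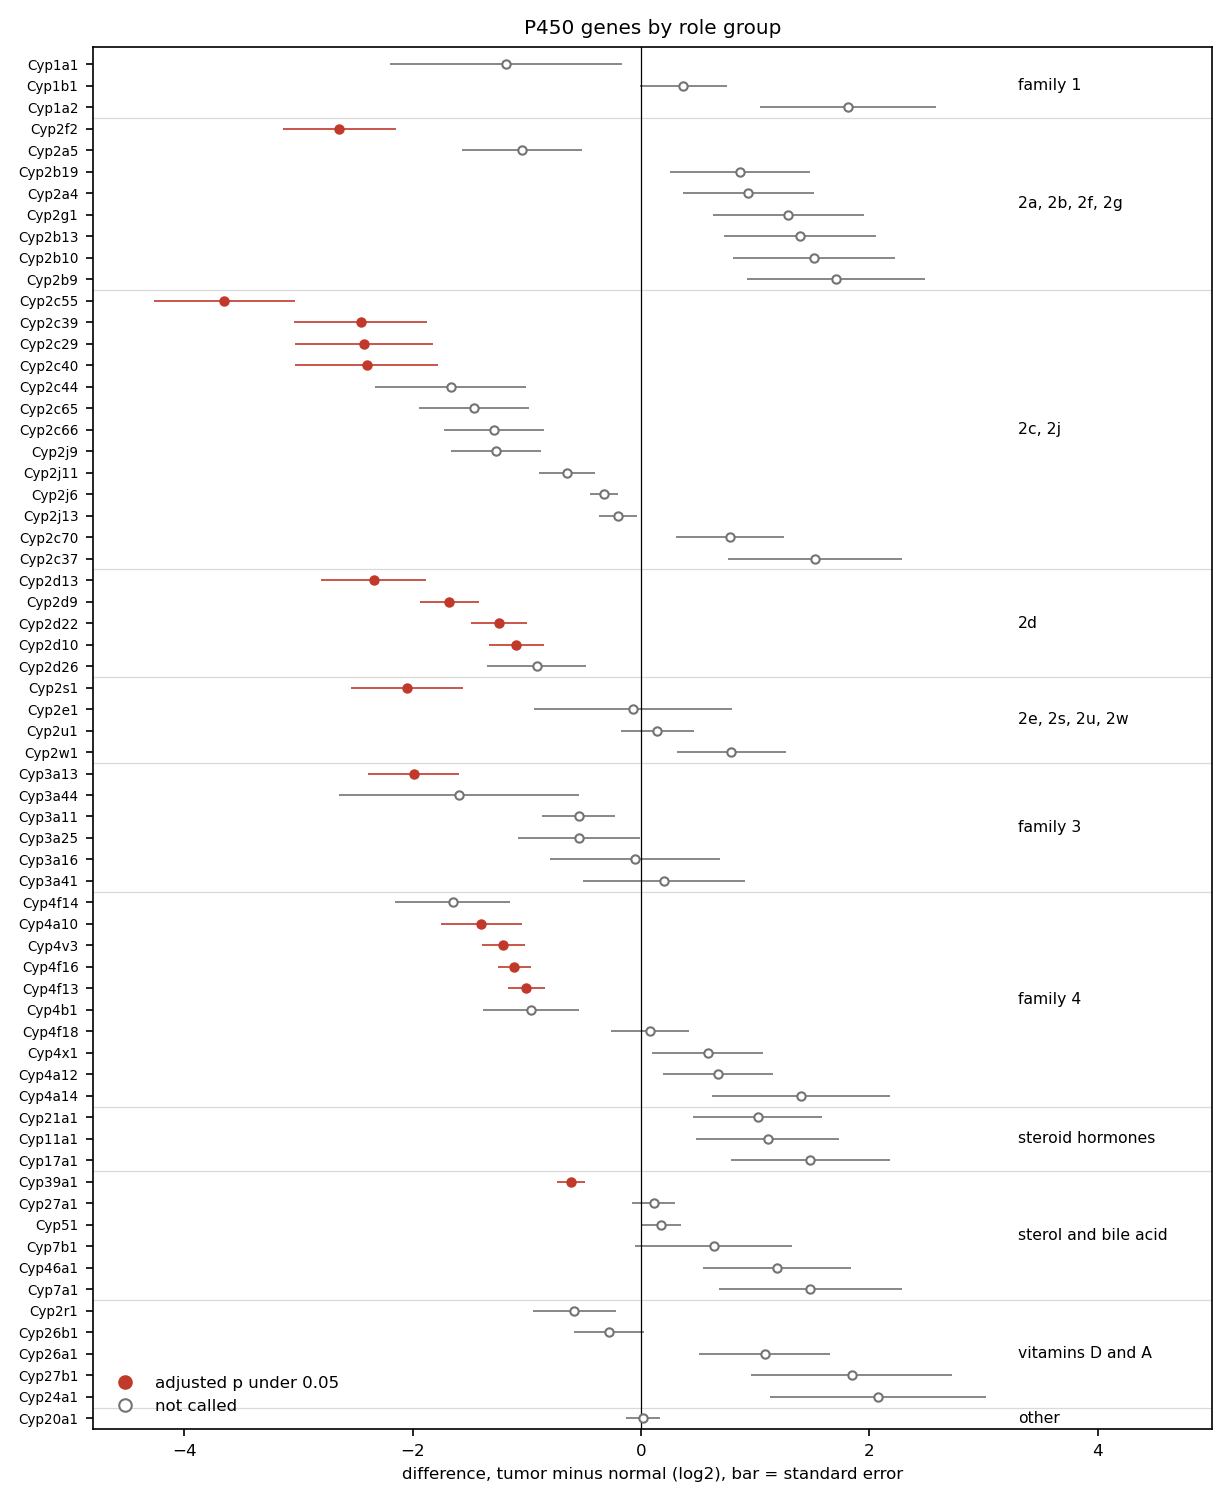
Difference, tumor minus normal (log2), of each of the 64 P450 genes with its standard error, grouped by role; filled red points have an adjusted p under 0.05. The 16 filled points all lie left of 0, and the largest difference is that of Cyp2c55, at -3.65.

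In each of the 16 genes every tumor was below every normal. Tumor 2 was the lowest tumor in 14 of the 16 and tumor 3 in the other 2, while tumor 1 was the highest in 9, tumor 4 in 6 and tumor 3 in 1. With pairs of equal replicate number as a block, 10 of the 64 genes fell and 0 rose, against 5.15% called lower and 3.65% called higher over all genes. The genes that lost their call were Cyp2c29, Cyp2c39, Cyp2c40, Cyp2s1, Cyp4a10 and Cyp39a1, with adjusted p = 0.053 to 0.070 in that fit. At an unadjusted p under 0.05 the blocked fit had 23 lower and 10 higher.

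Leaving out 1 sample changed the counts. Without tumor 1 the number of P450 genes that fell was 10, where 3.91% of all genes were called in either direction, and without tumor 4 it was 12, against 8.61%. It was 6 without tumor 2 (1.75% of all genes), 3 without normal 1 (2.56%), 4 without normal 2 (2.86%) and 1 without normal 4 (0.735%). Without tumor 3 it was 0 of 64, with 20 lower and 0 higher at an unadjusted p under 0.05, and 0.0971% of all genes were called. The calls thus fell off over the whole array in these fits. Without normal 3 there were 20 lower and 21 higher, where 51.5% of all genes were called, 19.8% lower and 31.7% higher. All of the 16 genes were also called without normal 3. Normal 3 is the normal most like the tumors, and calls rose from 14.5% to 51.5% of all genes without it. That fit is therefore no independent check of the 16. From the scanner values as filed under each sample, 0 of 64 were called, with 0 lower and 5 higher at an unadjusted p under 0.05. That fit compares partly different arrays, since the files under tumors 2, 3 and 4 and normal 1 matched no column of the value table.

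**Figure D2:**
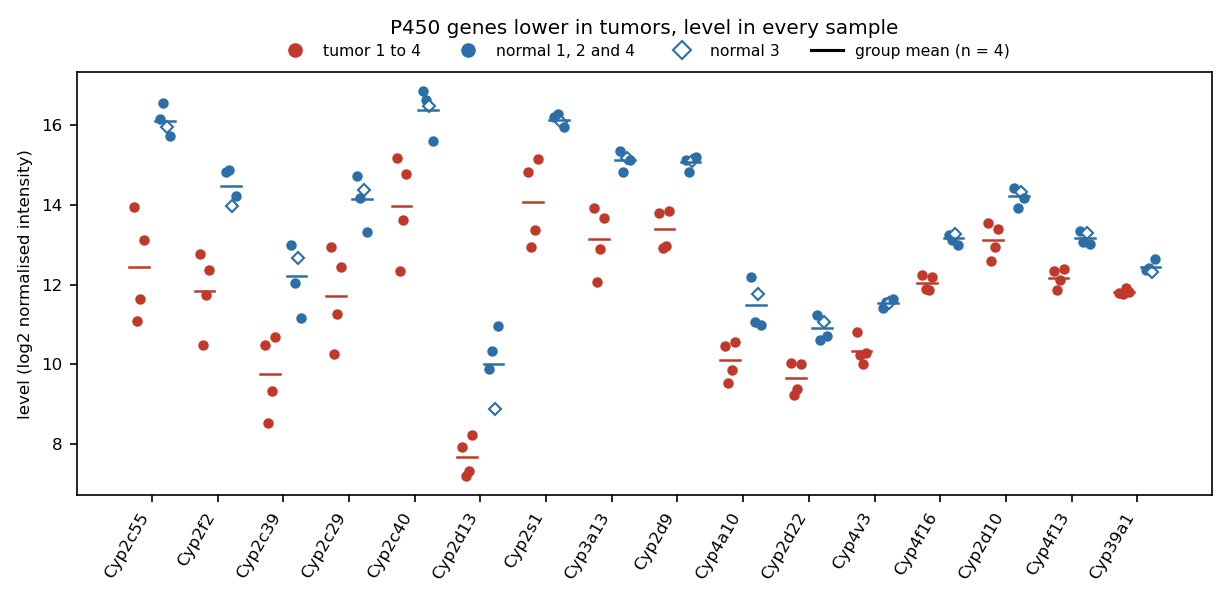
Normalised log2 level of the 16 P450 genes that fell, in each tumor (red) and each normal (blue, with normal 3 as an open diamond); bars are group means of 4 samples. The tumor points of each gene lie below its normal points, and the spread among tumors is widest in Cyp2c55, which runs from 11.08 to 13.96.

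The Cyp2c subfamily oxidises arachidonic acid and many drugs, and Cyp2j enzymes epoxidise fatty acids. Of 13 genes of these subfamilies in the fit, 4 fell, 9 were not called and 0 rose, with 10 lower and 0 higher at an unadjusted p under 0.05. With normal 3 left out, 7 were lower and 2 higher. Cyp2c55, a fatty acid oxidising enzyme of mouse colon, had 13.96, 11.08, 11.65 and 13.13 in tumors 1 to 4 against 16.16, 16.57, 15.94 and 15.73 in normals 1 to 4. Tumor means were 12.45 ± 1.32 and normal means 16.10 ± 0.36, so the gene was 12.6-fold lower (difference -3.65 ± 0.62, limma adjusted p = 0.018). All tumors were below all normals, and the tumors differed among themselves by more than the normals did. Its probe lies at chr19:39107228-39107287 on the plus strand of mm8, the build of the probe annotation.

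Cyp2c40, which hydroxylates arachidonic acid, had 15.17, 12.33, 13.63 and 14.79 in the tumors against 16.85, 16.62, 16.47 and 15.59 in the normals. Its difference was -2.41 ± 0.62 (limma adjusted p = 0.043, and 0.070 with the pairs as a block). Cyp2c29, an epoxygenase of mouse liver and gut, had 12.94, 10.26, 11.25 and 12.43 in the tumors against 14.72, 14.17, 14.37 and 13.32 in the normals, a difference of -2.42 ± 0.60 (adjusted p = 0.039, and 0.060 with the block). The groups did not overlap in either gene, and the pair numbered 4 differed least, by -0.80 for Cyp2c40 and by -0.88 for Cyp2c29.

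Cyp2c39, a mouse enzyme that can hydroxylate retinoic acid, had 10.47, 8.54, 9.34 and 10.70 in the tumors against 12.99, 12.04, 12.67 and 11.17 in the normals. Its difference was -2.46 ± 0.58 (adjusted p = 0.033, and 0.060 with the block). Normal 4 was the lowest normal, and the pair numbered 4 differed least, by -0.48. Cyp2c65 missed the threshold: it had 12.30, 10.34, 10.70 and 11.54 in the tumors and 13.15, 12.56, 13.14 and 11.89 in the normals, a difference of -1.47 ± 0.48 (adjusted p = 0.082). Tumor 1 lay above normal 4 in this gene, so the groups overlapped.

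The members of the Cyp2c cluster on chromosome 19 are given here in the order of their probes on mm8. From chr19:39107228 onward came Cyp2c55, Cyp2c65, Cyp2c66, Cyp2c29, Cyp2c39 and Cyp2c40, with differences of -3.65, -1.47, -1.29, -2.42, -2.46 and -2.41. Among them Cyp2c65 and Cyp2c66 were not called (limma adjusted p = 0.082 and 0.088), and their groups overlapped. The next were Cyp2c37 and Cyp2c70, with differences of 1.52 and 0.78, neither of them called. Cyp2c genes are close copies of each other, and probe sequences were not used here, so signal shared between copies was not tested.

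Promoters of the largest falls are shown so that members that moved together can be compared in sequence. They run from 250 bases before to 50 after the start in RefSeq (GRCm38.p6), 5′ to 3′ along the gene. Capitals mark matches to AGGTCA and AGTTCA (bound by nuclear receptors), CAAAGTCCA (a site form bound by Hnf4a), TTTATG (bound by Cdx factors), CTTTGAT (bound by Tcf factors) and GCGTG (the core bound by Ahr), each on both strands, and to TATAAA on the strand printed. Positions are chr19:39006769-39007068 (plus strand) for Cyp2c55, chr7:27119705-27120004 (plus) for Cyp2f2, chr19:39347096-39347395 (plus) for Cyp2c39, chr19:39286835-39287134 (plus) for Cyp2c29 and chr19:39812765-39813064 (minus) for Cyp2c40.
Cyp2c55: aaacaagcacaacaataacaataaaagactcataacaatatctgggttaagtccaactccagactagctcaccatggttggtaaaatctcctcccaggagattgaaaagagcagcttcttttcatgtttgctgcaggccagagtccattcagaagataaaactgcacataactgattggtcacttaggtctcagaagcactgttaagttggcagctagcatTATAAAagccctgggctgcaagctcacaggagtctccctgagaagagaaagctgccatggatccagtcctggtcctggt
Cyp2f2: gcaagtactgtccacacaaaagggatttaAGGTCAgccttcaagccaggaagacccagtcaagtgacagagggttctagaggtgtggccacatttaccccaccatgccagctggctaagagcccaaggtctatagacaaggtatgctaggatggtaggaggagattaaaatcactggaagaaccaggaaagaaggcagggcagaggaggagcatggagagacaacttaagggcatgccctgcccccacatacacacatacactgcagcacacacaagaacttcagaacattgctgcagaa
Cyp2c39: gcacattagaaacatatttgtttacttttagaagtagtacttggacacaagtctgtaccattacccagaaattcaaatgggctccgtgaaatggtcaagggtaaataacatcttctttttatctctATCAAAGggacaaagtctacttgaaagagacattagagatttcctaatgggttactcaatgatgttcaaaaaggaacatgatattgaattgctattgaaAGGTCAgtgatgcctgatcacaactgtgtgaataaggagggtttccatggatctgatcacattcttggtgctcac
Cyp2c29: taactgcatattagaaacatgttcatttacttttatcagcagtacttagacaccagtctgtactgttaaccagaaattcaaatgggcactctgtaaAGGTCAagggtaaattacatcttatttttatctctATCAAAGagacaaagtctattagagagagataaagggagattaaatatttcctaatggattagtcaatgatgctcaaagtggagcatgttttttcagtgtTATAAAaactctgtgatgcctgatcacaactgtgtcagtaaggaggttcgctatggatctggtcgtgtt
Cyp2c40: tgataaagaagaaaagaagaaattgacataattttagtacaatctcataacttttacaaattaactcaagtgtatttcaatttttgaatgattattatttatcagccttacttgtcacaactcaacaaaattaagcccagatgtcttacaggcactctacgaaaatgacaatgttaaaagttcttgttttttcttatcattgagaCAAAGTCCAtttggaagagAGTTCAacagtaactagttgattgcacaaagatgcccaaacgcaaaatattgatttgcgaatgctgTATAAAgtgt

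Each pair of promoters was slid past each other without gaps, and the best match was read. Cyp2c39 and Cyp2c29 were the most alike of the 5, with 57.0% of 295 bases identical in this way. Both held CTTTGAT on the reverse strand and AGGTCA. The other pairs were 30.6% to 34.4% identical. An inserted or lost base puts the rest of a pair out of step, so these shares can understate how alike 2 promoters are. Of the 72 P450 genes, 54 had an entry among the 27025 promoters of the table, and 48 of these were in the fit. AGGTCA was found in 12 of the 48 (25%), against 16.0% of all promoters. It lay in 3 of 12 promoters of genes that fell and in 9 of 36 of genes that were not called, which is 25% of each. AGTTCA was in 6 of 48 (12.5%, against 14.0% of all promoters), TTTATG in 4 (8.33%, against 12.2%), CTTTGAT in 2 (4.17%, against 3.72%) and GCGTG in 13 (27.1%, against 32.5%). CAAAGTCCA was in 5 of 48 (10.4%, against 0.477%) and TATAAA in 15 (31.3%, against 8.88%). AGTTCA lay in 3 of the 12 promoters of genes that fell and in 3 of the 36 others, CTTTGAT in 2 and 0, TTTATG in 0 and 4, GCGTG in 2 and 11, and TATAAA in 3 and 12. These splits are descriptions of few promoters, with no test. Of the 5 promoters with CAAAGTCCA, 1 belonged to a gene that fell (Cyp2c40), and the others to Cyp2c65, Cyp2c70, Cyp3a11 and Cyp3a16. A match is a match of letters in this window and was not set against binding data.

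The Cyp2d enzymes, relatives of the human drug-metabolising CYP2D6, lie in 1 cluster on chromosome 15, with probes from chr15:82201711 to chr15:82617970 on mm8. Of the 5 genes on the array 4 fell, in the fits with the pairs as a block and without normal 3 too, and Cyp2d26 was not called (difference -0.92 ± 0.43, adjusted p = 0.18). Cyp2d9, a testosterone hydroxylase of mouse liver, had 13.81, 12.91, 12.98 and 13.85 in tumors 1 to 4 against 15.12, 14.84, 15.10 and 15.21 in normals 1 to 4. It was 3.20-fold lower (difference -1.68 ± 0.26, limma adjusted p = 0.016). The groups did not overlap, and tumors 2 and 3 lay together below tumors 1 and 4.

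Cyp2d13 had 7.92, 7.19, 7.33 and 8.23 in the tumors against 9.88, 10.33, 8.87 and 10.97 in the normals, a difference of -2.34 ± 0.46 (adjusted p = 0.022). Normal 3 was the lowest normal, and without it the difference was -2.72. Cyp2d22 had 10.03, 9.24, 9.38 and 9.99 in the tumors against 11.23, 10.61, 11.06 and 10.70 in the normals, and Cyp2d10 had 13.55, 12.60, 12.94 and 13.39 against 14.44, 13.92, 14.32 and 14.18. Their differences were -1.24 ± 0.25 (adjusted p = 0.022) and -1.09 ± 0.24 (adjusted p = 0.028). In all of these genes tumors 2 and 3 were the lowest samples. The direction was the same in every alternative fit, except for Cyp2d22 in the fits of scanner values. Its difference was 0.33 from the scanner values as filed and 0.26 from them after normexp correction. Those fits put partly different arrays under the sample labels, so they are not only a change of scaling.

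Subfamilies 2a, 2b, 2f and 2g share a stretch of chromosome 7 with Cyp2s1. Of the 8 tested genes of these subfamilies 1 fell, Cyp2f2, which activates naphthalene in club cells of mouse lung. Cyp2f2 had 12.76, 10.47, 11.75 and 12.36 in tumors 1 to 4 against 14.84, 14.89, 13.96 and 14.23 in normals 1 to 4. The groups did not overlap, and the gene was 6.25-fold lower (difference -2.64 ± 0.50, limma adjusted p = 0.021). The other 7 genes were not called, with differences of -1.04 for Cyp2a5 and 0.87 to 1.70 for Cyp2a4, Cyp2b9, Cyp2b10, Cyp2b13, Cyp2b19 and Cyp2g1. Without normal 3 the counts of these 8 genes were 2 lower and 6 higher, where 19.8% of all genes were called lower and 31.7% higher. Cyp2b10 was then higher by 2.22 (limma adjusted p = 0.0064) and Cyp2b9 by 2.43 (limma adjusted p = 0.011).

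Cyp2s1, a P450 of epithelia outside the liver, had 14.84, 12.95, 13.37 and 15.16 in the tumors against 16.21, 16.29, 16.08 and 15.95 in the normals. The normals lay within a narrow band and the tumors spread below it (difference -2.05 ± 0.49, adjusted p = 0.035, and 0.062 with the pairs as a block), while the scanner values as filed gave a difference of 0.26. On mm8 the probes of Cyp2s1 (chr7:25511245-25511304) and Cyp2f2 (chr7:26842311-26842370), which fell, enclose those of the Cyp2a, Cyp2b and Cyp2g genes named above, which were not called with all 8 samples. Cyp2e1, which oxidises ethanol, had 8.35, 8.34, 9.46 and 10.23 in the tumors against 8.40, 10.18, 7.16 and 10.94 in the normals, and the groups overlapped throughout (difference -0.07 ± 0.87, adjusted p = 0.95). Leaving out normal 3 gave 1 gene lower and 1 higher among the 4 of subfamilies 2e, 2s, 2u and 2w.

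Family 3 holds the main drug-oxidising enzymes of liver and intestine. Of 6 genes 1 fell, Cyp3a13, an intestinal member of the family in mice. It had 13.92, 12.06, 12.90 and 13.66 in tumors 1 to 4 against 15.35, 14.84, 15.18 and 15.14 in normals 1 to 4. The groups did not overlap, and the gene was 3.98-fold lower (difference -1.99 ± 0.40, limma adjusted p = 0.023), though the scanner values as filed gave 1.24. The other 5, Cyp3a11, Cyp3a16, Cyp3a25, Cyp3a41 and Cyp3a44, had differences of -1.60 to 0.20 with overlapping groups, and normal 3 was the highest of the 8 samples in each of them. Without normal 3 the family had 1 gene lower and 0 higher.

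Family 4 enzymes hydroxylate fatty acids and eicosanoids at the end of the chain. Of 10 genes in the fit 4 fell, 6 were not called and 0 rose, with 5 lower and 0 higher at an unadjusted p under 0.05. With normal 3 left out, 4 were lower and 3 higher. Cyp4f16 had 12.24, 11.90, 11.87 and 12.20 in tumors 1 to 4 against 13.25, 13.13, 13.27 and 12.98 in normals 1 to 4. Its difference of -1.11 ± 0.15 had the lowest adjusted p of the 64 genes (0.014), a call that ended when tumor 3 was left out (adjusted p = 0.056) and not when any of the other samples was. Cyp4f13 had 12.34, 11.86, 12.12 and 12.40 in the tumors against 13.34, 13.08, 13.28 and 13.02 in the normals (difference -1.004 ± 0.16, adjusted p = 0.017). In both genes each group spanned under 1 log2 unit and the groups did not overlap.

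Cyp4v3, the mouse counterpart of the human fatty acid hydroxylase CYP4V2, had 10.81, 10.24, 9.998 and 10.28 in the tumors against 11.41, 11.56, 11.55 and 11.65 in the normals (difference -1.21 ± 0.19, adjusted p = 0.016). Cyp4f14, a leukotriene hydroxylase, had 14.13, 12.19, 13.09 and 14.20 against 15.72, 14.66, 15.35 and 14.47. Its groups did not overlap either, yet it missed the threshold (difference -1.65 ± 0.51, adjusted p = 0.068). Cyp4b1, which activates some protoxins, had 10.31, 8.69, 8.71 and 10.17 in the tumors and 10.29, 10.23, 10.64 and 10.60 in the normals, and was not called (difference -0.97 ± 0.42, adjusted p = 0.16). Differences of Cyp4f13, Cyp4f14, Cyp4f16, Cyp4v3 and Cyp4b1 were above 0 in the scanner values as filed.

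Cyp4a10, a fatty acid hydroxylase induced through Ppara, gave different answers by probe. The brightest of its 3 kept probes (chr4:115023481-115023540) had 10.45, 9.52, 9.85 and 10.57 in the tumors against 12.18, 11.06, 11.77 and 10.98 in the normals, a difference of -1.40 ± 0.35 (adjusted p = 0.040, and 0.053 with the pairs as a block). The 2 dimmer probes had differences of 1.83 and 0.86, not called, and each was at or above the limit in 1 of 4 normals. The mean of the 3 probes differed by 0.43, so the direction for this gene rests on the choice of probe.

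Family 1 genes are induced by the aryl hydrocarbon receptor. None of the 3 was called, and 1, Cyp1a2, was higher at an unadjusted p under 0.05. Without normal 3 Cyp1a2 was called higher (difference 2.56, limma adjusted p = 0.0071). Normals 1, 2 and 4, at 5.02, 3.40 and 4.77, all lay below the limit of 5.59 in this gene. That call therefore sets the tumors against values near background. Cyp1a1 had 6.58, 6.16, 5.79 and 5.31 in tumors 1 to 4 and 4.32, 9.02, 6.39 and 8.83 in normals 1 to 4. The tumors lay inside the range of the normals, which spread far wider (tumor mean 5.96 ± 0.54, normal mean 7.14 ± 2.23, difference -1.18 ± 1.02, adjusted p = 0.39). Cyp1b1 had 6.58, 7.23, 7.07 and 6.35 in the tumors and 5.53, 7.17, 6.27 and 6.78 in the normals (difference 0.37 ± 0.38, adjusted p = 0.47), and its second probe differed by 2.41, not called either.

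Vitamin D and vitamin A are activated and cleared by P450 enzymes, and none of these 5 genes was called in either direction or had an unadjusted p under 0.05. Cyp24a1, which degrades active vitamin D, had 7.25, 6.73, 7.30 and 6.84 in tumors 1 to 4 and 6.19, 3.16, 7.28 and 3.19 in normals 1 to 4. Cyp27b1, which makes active vitamin D, had 11.51, 10.44, 11.32 and 10.61 in the tumors and 10.05, 7.54, 11.38 and 7.54 in the normals. In both genes normals 2 and 4 were far below the other 6 samples and normal 3 was among the tumors. The mean differences of 2.07 ± 0.95 and 1.84 ± 0.88 did not exceed the spread (adjusted p = 0.17 and 0.18). In Cyp24a1 normals 2 and 4 lay below the limit of 5.59, so its difference rests on values near background. Without normal 3, where 31.7% of all genes were called higher, the vitamin genes had 3 higher and 0 lower. Cyp27b1 then differed by 2.59 (limma adjusted p = 0.0196).

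Cyp2r1, which carries out the first hydroxylation of vitamin D, had 6.99, 8.13, 8.30 and 8.71 in the tumors and 8.80, 8.41, 8.32 and 8.93 in the normals (difference -0.58 ± 0.37, adjusted p = 0.25). Cyp26a1, a retinoic acid hydroxylase, had 6.35, 6.44, 6.69 and 6.40 in the tumors and 3.62, 5.69, 6.64 and 5.60 in the normals (difference 1.08 ± 0.58, adjusted p = 0.21), with normal 1 below the limit. Cyp26b1, with the same role, differed by -0.28 ± 0.31 (adjusted p = 0.49).

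The 3 steroid hormone genes in the fit were not called, and 0 had an unadjusted p under 0.05. Cyp11a1, which cleaves the cholesterol side chain, had 7.66, 7.62, 7.62 and 7.09 in tumors 1 to 4 and 7.39, 5.30, 7.75 and 5.14 in normals 1 to 4 (difference 1.11 ± 0.62, adjusted p = 0.22), with normals 2 and 4 below the limit. Cyp17a1, an enzyme of androgen synthesis, had 12.25, 11.29, 12.14 and 11.42 in the tumors and 10.82, 9.13, 12.15 and 9.08 in the normals (difference 1.48 ± 0.70, adjusted p = 0.18). As in the vitamin D genes, normals 2 and 4 were the lowest samples. Without normal 3 all 3 steroid genes were called higher, Cyp21a1 among them, where 31.7% of all genes were called higher. Each of the 3 had normals 2 and 4 as its lowest samples, a pattern found over the whole array.

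Among 6 sterol and bile acid genes 1 fell, and without normal 3 the counts were 1 lower and 2 higher. Cyp39a1, an oxysterol hydroxylase of bile acid synthesis, had 11.80, 11.78, 11.92 and 11.81 in tumors 1 to 4 against 12.37, 12.41, 12.32 and 12.64 in normals 1 to 4. It is named outside the rule for named genes, after its values were seen, and it has the smallest fall of the 16 and the tightest tumors (difference -0.61 ± 0.12, limma adjusted p = 0.023, and 0.059 with the pairs as a block). Cyp51, the lanosterol demethylase of cholesterol synthesis, had 13.24, 13.27, 13.20 and 13.32 in the tumors and 13.53, 13.11, 12.90 and 12.81 in the normals, and was not called (difference 0.17 ± 0.18, adjusted p = 0.47). Cyp27a1, a mitochondrial sterol hydroxylase, differed by 0.11 ± 0.19 (adjusted p = 0.67), and Cyp20a1, whose substrate is not known, by 0.02 ± 0.15 (adjusted p = 0.94).

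**Figure D3:**
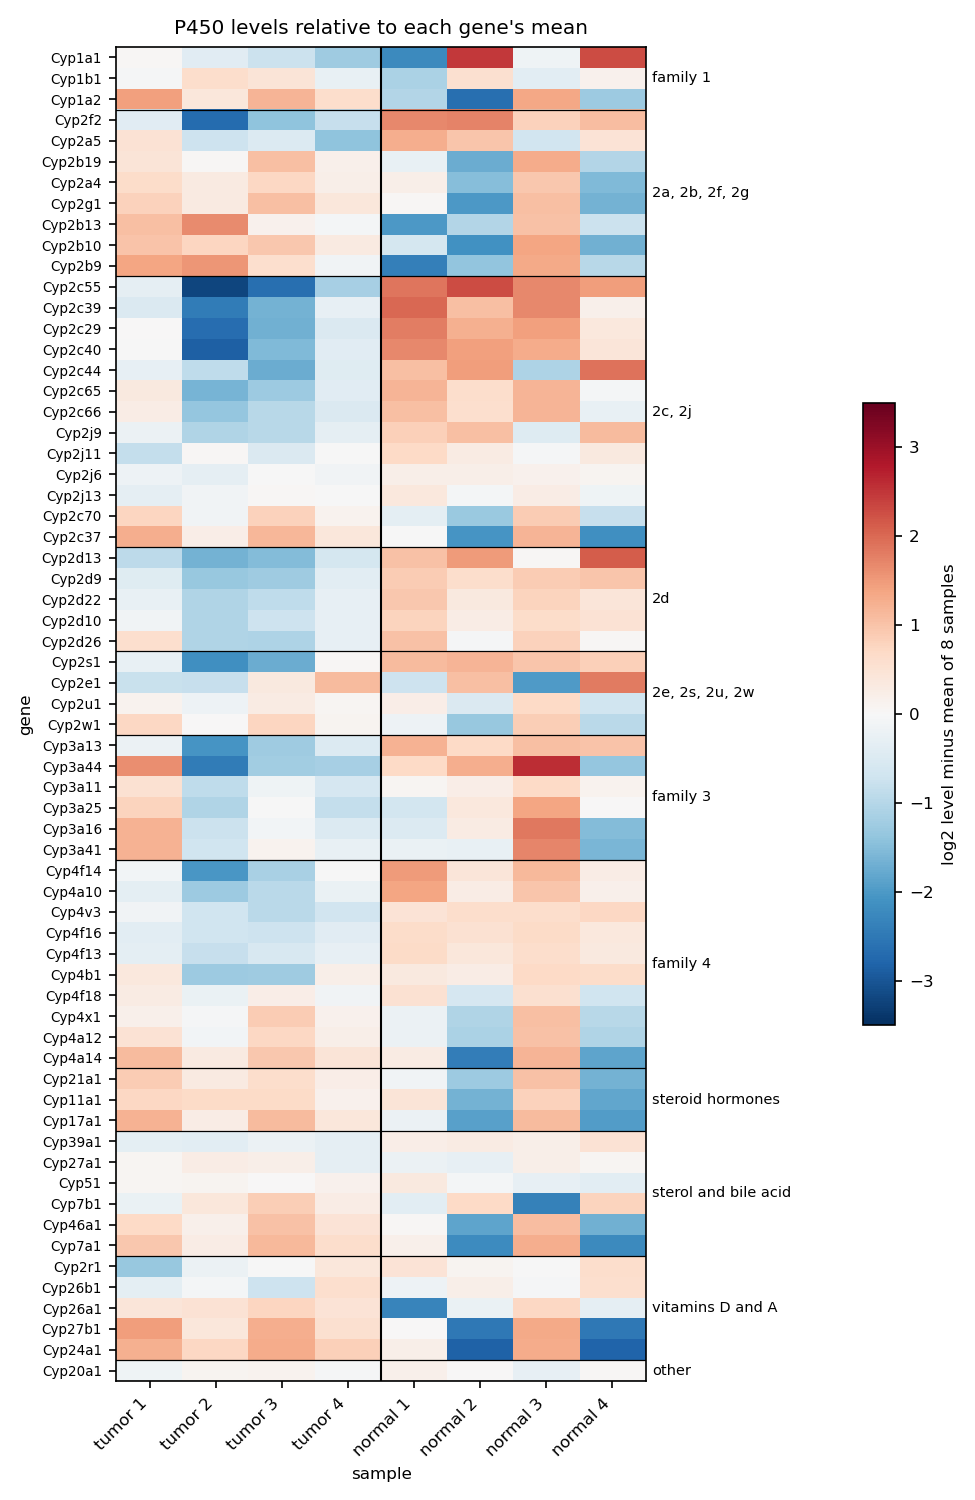
Log2 level of the 64 P450 genes in each of the 8 samples minus the gene's mean over the samples, red above and blue below the mean, grouped by role. Of the 16 genes that fell, 14 are bluest in tumor 2, while 20 others are bluest in normals 2 and 4.

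Normals 2 and 4 held the lowest values of many genes outside the 16. In 20 of the 64 (31.3%) normals 2 and 4 were the 2 lowest of the 8 samples, against 33.5% of all genes tested, so the share in P450 genes was near that of the array as a whole. The 20 were Cyp1a2, Cyp2a4, Cyp2b10, Cyp2b19, Cyp2c37, Cyp2c70, Cyp2g1, Cyp2u1, Cyp2w1, Cyp4a12, Cyp4a14, Cyp4f18, Cyp4x1, Cyp7a1, Cyp11a1, Cyp17a1, Cyp21a1, Cyp24a1, Cyp27b1 and Cyp46a1. They were chosen by these low values, so the lows themselves are a description. Normals 2 and 4 were also the lowest samples in the median of 621 genes whose symbols begin with Olfr, odorant receptors of the nose, with 7.85, 7.41, 7.98 and 7.53 in the tumors and 7.25, 5.72, 8.12 and 5.85 in the normals. Among those Olfr genes 84.9% had normals 2 and 4 as the lowest samples, and the part of this shift in the P450 values was not tested.

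The falls lay among the brighter probes. Of 28 P450 genes with a mean level at or above 10.15, the median of all genes tested, 15 fell, which is 53.6%, against 10.8% called lower among all genes of that range. Of the 36 dimmer P450 genes 1 fell (2.78%, against 4.26%). The median difference was -1.16 in the brighter genes and 0.61 in the dimmer ones, against 0.03 and 0.44 over all genes. In the 4 traced columns 47 of the 64 genes were well above background on every array by the scanner's own call, 0 were below it on every array and 0 were saturated.

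Genes that serve the P450 enzymes were taken as 4 lists with 65 genes in the fit. Of these 8 rose and 10 fell (limma, adjusted p under 0.05), against 7.0% and 7.54% over all genes, and with each array centred on its median the counts were 6 and 15. With the pairs as a block 3 rose and 8 fell. The count called was 9 without tumor 1 (3.91% of all genes), 4 without tumor 2 (1.75%), 12 without tumor 4 (8.61%), 4 without normal 1 (2.56%), 4 without normal 2 (2.86%) and 1 without normal 4 (0.735%). It was 0 without tumor 3 (0.0971%), with 25 at an unadjusted p under 0.05, and 32 without normal 3 (51.5%).

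Of 12 electron donors 1 rose and 0 fell, with 3 higher and 3 lower at an unadjusted p under 0.05, and without normal 3 there were 3 higher and 1 lower. Cyb5r1, a cytochrome b5 reductase, had 12.57, 12.80, 12.86 and 12.60 in tumors 1 to 4 against 12.02, 11.82, 12.11 and 12.04 in normals 1 to 4 (difference 0.71 ± 0.13, adjusted p = 0.020, and 0.051 with the block). Its groups did not overlap. Por, the reductase that most microsomal P450 enzymes depend on, had 15.92 ± 0.08 in tumors and 16.32 ± 0.20 in normals and was not called (difference -0.40 ± 0.14, adjusted p = 0.099).

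Of 28 regulators in the fit 8 fell, 1 rose and 19 were not called, with 13 lower and 1 higher at an unadjusted p under 0.05. Leaving out normal 3 gave 12 lower and 3 higher. Nr1i3, the nuclear receptor CAR that senses foreign compounds, had 8.01, 6.74, 5.79 and 7.73 in tumors 1 to 4 against 10.51, 8.82, 9.64 and 8.79 in normals 1 to 4 (difference -2.37 ± 0.58, adjusted p = 0.037, and 0.051 with the block). Ppara, the fatty acid receptor, had 7.64, 7.11, 7.11 and 7.78 in the tumors against 10.30, 9.91, 8.89 and 9.82 in the normals (difference -2.32 ± 0.32, adjusted p = 0.015). Both separated the groups without overlap.

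Vdr, the vitamin D receptor, had 15.03, 13.60, 13.80 and 15.01 in the tumors against 16.39, 16.38, 16.15 and 16.67 in the normals (difference -2.04 ± 0.37, adjusted p = 0.020). Rarb, a retinoic acid receptor, was the gene that rose, with 12.66, 13.19, 12.35 and 11.50 in the tumors against 8.87, 9.24, 11.28 and 9.54 in the normals (difference 2.69 ± 0.58, adjusted p = 0.027, and 0.054 with the block). Normal 3 lay closest to the tumors in Rarb. The other 5 that fell were Nr1i2, Hnf4a, Nr3c1, Nr1h4 and Rxra, with differences of -1.43 to -0.70. They are the receptor PXR, a hepatocyte and enterocyte factor, the glucocorticoid receptor, the bile acid receptor and the partner of many nuclear receptors.

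Of 12 enzymes that make prostanoids and related lipids or open epoxides 4 rose and 1 fell, and without normal 3 there were 6 higher and 2 lower. Alox12, a lipoxygenase, had 13.54, 14.12, 13.68 and 13.57 in tumors 1 to 4 against 8.49, 8.71, 13.06 and 8.56 in normals 1 to 4 (difference 4.02 ± 1.004, adjusted p = 0.039, and 0.060 with the block). Ptgs2, the inducible cyclooxygenase, had 11.01, 11.14, 11.68 and 10.13 in the tumors against 6.74, 8.22, 7.51 and 7.54 in the normals and was 11.2-fold higher (difference 3.49 ± 0.40, adjusted p = 0.012). In Alox12 normal 3 was close to the tumors, whereas in Ptgs2 it lay among the normals.

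Ptges, a prostaglandin E synthase, rose by 1.26 ± 0.27 (adjusted p = 0.027). Ephx2, the soluble epoxide hydrolase that acts on the epoxides made by Cyp2c and Cyp2j enzymes, had 13.44, 11.84, 12.63 and 13.04 in the tumors against 14.50, 13.96, 14.04 and 13.85 in the normals (difference -1.35 ± 0.34, adjusted p = 0.041). As in Cyp2c55 and Cyp2c40, tumor 2 was the lowest sample and tumors 1 and 4 were the highest tumors.

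Of 13 genes of heme synthesis and breakdown 2 rose and 1 fell, and without normal 3 there were 4 higher and 1 lower. Hmox1, the inducible heme oxygenase, had 12.40, 13.61, 12.91 and 13.85 in tumors 1 to 4 against 10.23, 10.12, 11.55 and 9.52 in normals 1 to 4 (difference 2.84 ± 0.49, adjusted p = 0.019). Blvrb, a biliverdin reductase, rose by 0.90 ± 0.25 (adjusted p = 0.049, and 0.070 with the block). Fech, which inserts iron into protoporphyrin to form heme, had 12.88, 12.34, 12.64 and 13.00 in the tumors against 13.62, 13.73, 13.39 and 13.66 in the normals (difference -0.89 ± 0.18, adjusted p = 0.023, and 0.052 with the block).

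**Figure D4:**
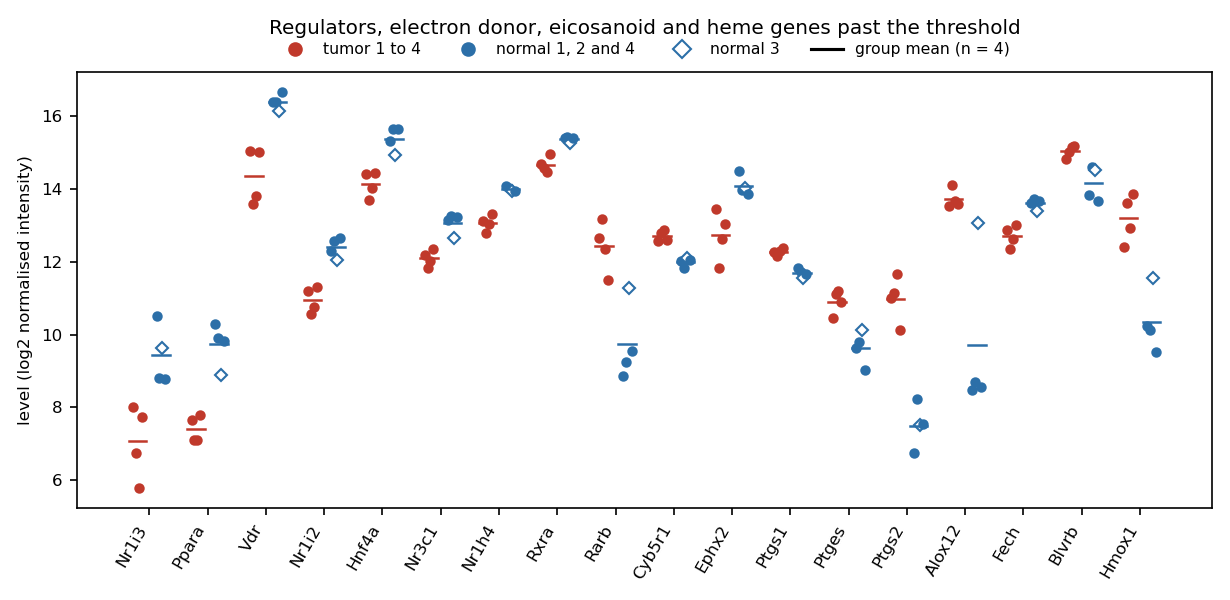
Normalised log2 level of the 18 regulator, electron donor, eicosanoid and heme genes past the threshold, in each tumor (red) and each normal (blue, with normal 3 as an open diamond); bars are group means of 4 samples. The widest separation of means is that of Alox12, 4.02, where normal 3 lies at 13.06 near the tumors.

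Markers of some cell types also differed between tumors and normals, where 7.54% of all genes were called lower and 7.0% higher. Of 10 absorptive colonocyte markers 7 fell and 0 rose, and their mean level was 14.13 to 15.38 in tumors and 16.39 to 16.9 in normals. Tumors 2 and 3 had the lowest means, 14.13 and 14.22, as they had the lowest values of most P450 genes that fell. Of 5 neutrophil markers 5 rose, with mean levels of 12.58 to 13.92 in tumors and 7.63 to 11.03 in normals, and of 8 macrophage markers 6 rose and 0 fell, with 12.45 to 12.68 in tumors and 10.74 to 11.54 in normals. Of 10 markers of small intestine enterocytes 1 fell and 0 rose, with 8.46 to 10.34 in tumors and 9.14 to 11.37 in normals. Without normal 3, 19.8% of all genes were called lower and 31.7% higher. In that fit the colonocyte list had 9 lower and 0 higher, the neutrophil list 5 higher, the macrophage list 7 higher and the small intestine list 1 lower.

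Of 4 hepatocyte markers 1 rose, Alb, with 12.05, 12.56, 12.67 and 11.86 in tumors 1 to 4 against 9.55, 9.90, 10.65 and 8.96 in normals 1 to 4. None of 6 smooth muscle, 5 fibroblast and 5 adipocyte markers was called, with 1 fibroblast marker higher at an unadjusted p under 0.05, and their means ran from 14.92 to 16.05, 14.58 to 15.6 and 10.45 to 12.34 in tumors and from 14.55 to 16.8, 12.41 to 15.24 and 9.91 to 12.72 in normals. Without normal 3, 1 hepatocyte marker was higher and 1 lower, 2 smooth muscle markers were lower and 1 fibroblast marker was higher. In these bulk samples fewer cells of a type and less RNA per cell cannot be told apart. The part of the colonocyte, neutrophil and macrophage markers in the P450 falls was not tested.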

How the data were processed

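RNA of 8 samples was measured on one-colour Agilent arrays, 1 per sample. Scanner files hold spot intensity values made by Feature Extraction 9.5.1.1 per the file headers, with probe positions on mm8. The submitters' processing notes give version 10.1.1.1. The authors deposited a table of normalised log2 values, whose scale was found by setting its columns against the scanner files. The fit used this table with samples as its columns name them, since the files disagree on sample identity. No column was moved.

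Probes were named through RefSeq (GRCm38.p6, names and promoters only). For the limit of 5.59, probes that the scanner did not call well above background were taken in each of the 4 traced columns, and the median of their 95th percentiles was used. Tumors and normals were tested 2-sided with lmFit and eBayes of limma 3.58.1 (R 4.3.3), adjusted over all 21635 genes by Benjamini-Hochberg at 0.05. The procedure was tested on simulated data with the means and spreads of these genes, of which 200 were changed. It recovered 22 of 100 changes of 1 log2 unit and 51 of 100 changes of 2 log2 units, with 13 false calls beside them. A gene that was not called can therefore still differ by that much. The simulated noise was independent between genes and the real fit called 3147 genes, so these rates do not carry over directly to the real data. Deviations of same-numbered tumors and normals correlated at 0.239 to 0.534 and those of differently numbered ones at -0.507 to 0.380, so the ranges overlap. The protocol names littermates and every same-numbered pair was above 0.1, so these pairs were also fitted as a block. P-values measure the spread between 4 arrays a group, which limits the precision.

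The members and lists were chosen with earlier results of these data known. Named genes were those called without overlap (at most the 15 with the largest differences), the brightest of each role group, a fixed list, and at most 4 called genes per pathway list. Cyp11b1, on that list, was not among the members. Alternatives covered the filter, probe choice, variance prior, centring, slide, scanner values, normexp and leaving out each sample.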

Additional observations from a re-analysis of the deposited data

Results flagged for a closer look

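A stray sample was looked for in each group of 49 named or listed genes, 98 groups in all, and chance marks about 1 in 20 such groups. Cyp11a1 stood out in tumor 4, at 7.093, where the other tumors had 7.618 to 7.663. Rxra stood out in normal 3, at 15.27, where the other normals had 15.4 to 15.41. Alox12 stood out in normal 3, at 13.06, where the other normals had 8.488 to 8.707.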

How the results depend on the processing

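Of the 16 P450 genes that fell, 13 did so without the filter (not Cyp2c29, Cyp2c40 or Cyp4a10), 15 with probes averaged (not Cyp4a10), and all 16 with the limit reached on all 8 arrays, with a trended robust prior and after centring. The replicate block left 10 P450 and 11 of 18 pathway calls. The slide block on the traced columns left 0 of each, with 39 and 27 at an unadjusted p under 0.05; it uses 4 samples. The scanner values as filed and with normexp left 0 of each, with 5 P450 and 2 pathway genes at an unadjusted p under 0.05 in both, and turned the sign of 25 and 27 of the 64 genes (39.1% and 42.2%, against 34.2% and 34.5% of all genes), 7 of the 16 in each. Among the named genes they were, values in that order, Cyp1a1 0.56 and 0.12, Cyp2c65 1.63 and 1.61, Cyp2d22 0.33 and 0.26, Cyp2e1 1.09 and 0.82, Cyp2s1 0.26 and 0.25, Cyp3a13 1.24 and 1.23, Cyp4a10 1.59 and 1.55, Cyp4b1 2.68 and 2.53, Cyp4f13 0.24 and 0.28, Cyp4f14 1.92 and 1.88, Cyp4f16 0.32 and 0.39, Cyp4v3 1.86 and 1.82, Cyp20a1 -0.53 and -0.49, Cyp26b1 1.23 and 1.01, and Cyp11a1 -0.13 with normexp. The fits of scanner values compare partly different arrays from the value table. In them the files that matched no column stand under tumors 2, 3 and 4 and normal 1. Tumor or normal label and matched or unmatched file thus largely go together there, and the cause of the sign turns was not tested. Among the named genes centring turned Cyp20a1 (-0.12) and Cyp27a1 (-0.026), the slide block turned Cyp20a1 (-0.13) and Cyp51 (-0.061), and averaging probes turned Cyp4a10 (0.43). Leaving out each sample in turn, P450 calls ran from 0 (without tumor 3) to 41 (without normal 3), pathway calls from 0 to 32, Cyp20a1 from -0.073 to 0.081 and Cyp2e1 from -0.75 to 0.52. Array number and, for the dimmer P450 genes, signal near background limit these results.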

Other observations

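The 4 scanner files that matched no column, deposited under normal 1 and tumors 2, 3 and 4, enter only the fits of scanner values above. In those fits, as filed and with normexp, they stand under these labels. Relative to the 75th percentile of its array, on the log2 scale, 22 of the 64 P450 genes were higher in all of these files than in any of the 4 matched files and 4 were lower, namely Cyp2f2, Cyp2d13, Cyp39a1 and Cyp20a1. These shares were 34.4% and 6.25%, against 6.95% and 7.99% of all 21635 genes. Cyp3a25, a liver and intestine member of family 3, ran from 2.33 to 3.99 in the unmatched files and from -5.53 to -3.07 in the matched ones. Cyp2f2 ran from -5.39 to -4.35 in the unmatched files and from -0.96 to 3.62 in the matched ones. These genes were singled out after their values were seen.

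Among P450 genes outside the comparison's named set, Cyp2j9, an enzyme that acts on arachidonic acid, had 9.27, 8.43, 8.52 and 9.18 in tumors 1 to 4 against 10.32, 10.54, 9.03 and 10.58 in normals 1 to 4. It was not called (difference -1.27 ± 0.39, limma adjusted p = 0.069), and without normal 3, the lowest normal, the difference was -1.63 (adjusted p = 0.0051), while the scanner values as filed gave 0.47. Cyp2c44, an epoxygenase, had 7.13, 6.52, 5.70 and 7.002 in tumors 1 to 4 against 8.48, 8.87, 6.34 and 9.33 in normals 1 to 4, with normal 3 again the lowest normal, and differed by -1.67 ± 0.66 (adjusted p = 0.13). Without normal 3 its difference was -2.31 (adjusted p = 0.0063), and the scanner values as filed gave 0.38. Cyp2j6 had 12.15 to 12.44 in tumors and 12.55 to 12.68 in normals, with no overlap, and was not called (difference -0.33 ± 0.12, adjusted p = 0.11), and the scanner values as filed gave 0.51. These 3 genes were chosen after their values were seen.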
